A study of Mus musculus with 10 samples.

Results

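Matrix proteoglycans and syndecans of the mouse ovarian follicle were examined as a set of 10 genes, taken by symbol (Spock2, Sparc, Dcn, Lum, Bgn, Hspg2, Sdc1, Sdc2, Sdc4 and Gpc1) from a deposited table of 23234 gene symbols. All 10 were in the table, and 9 of them entered the tests, since Lum did not reach a mean of 1 FPKM (sequenced fragments scaled by transcript length and by mapped library size) over the C57BL/6 libraries. Sparc encodes a matrix glycoprotein without a glycosaminoglycan chain and is here as the relative of the proteoglycan encoded by Spock2. RNA came from cumulus cells, the granulosa cells around the oocyte, of C57BL/6 mice. There were 3 libraries from mice aged 2 months and 3 from mice aged 10 months, and 2 more libraries held mural granulosa cells, the granulosa layer along the wall of the follicle, at 2 months in the same strain. Intact cumulus-oocyte complexes, labelled COC, came from PMSG-primed mice aged 3 weeks, with 1 library from the strain DBA/2 and 1 from BDF1, the cross of C57BL/6 and DBA/2. PMSG, also called eCG, is a gonadotropin that makes follicles grow, and per the labels' protocols the donors of mural cells had been given eCG. Priming of the cumulus donors was not stated, so cell type and priming cannot be told apart. Nothing in the labels ties the libraries of a group to different animals, and the p-values therefore cover only the spread between libraries, which may be technical.

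Proteoglycans are proteins that carry long sulfated sugar chains, among them heparan sulfate and chondroitin and dermatan sulfate. Syndecans span the cell membrane and glypicans are tied to it by a lipid anchor, and both hold growth factors at the cell surface through heparan sulfate. Perlecan is a heparan sulfate proteoglycan of basement membranes, and decorin, lumican and biglycan are small leucine-rich proteoglycans that bind collagen fibrils in connective tissue. In the growing follicle a basement membrane separates mural granulosa cells from the vascularised theca, and the granulosa layer inside it has no blood vessels before ovulation.

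Every library carried granulosa cell transcripts: the median log2(FPKM + 1) of 7 granulosa genes, Inha and Foxl2 among them, was 6.08 to 7.14. Markers of other cell types were also present at different levels. The summed FPKM of 14 theca and stroma markers was 45.5 to 50.1 in 2-month cumulus cells, 74.1 to 149.6 in 10-month cumulus cells, 315.6 to 439 in mural cells and 36.1 to 44.5 in the complexes. For 8 endothelial markers the ranges were 7.12 to 9.15, 11.4 to 29.3, 36.8 to 82.7 and 12.6 to 13.3 in the same order, and for 13 immune markers they were 6.70 to 8.99, 33.3 to 101.0, 31.6 to 70.2 and 9.43 to 11.7. For 9 surface epithelium markers they were 26.4 to 35.6, 52.5 to 120.03, 34.3 to 53.6 and 25.4 to 28.4. Much of the theca and stroma sum was 1 gene, Aldh1a1. It stood at 20.8 to 24.1 FPKM in 2-month cumulus, 30.1 to 78.9 in 10-month cumulus and 194.8 and 254.1 in mural cells. Most of the surface epithelium sum in 2-month cumulus cells was Krt8 (22.4 to 30.8 FPKM). The endothelial gene Emcn and the epithelial genes Krt19 and Msln were listed at 0 in all 3 cumulus libraries at 2 months, while no theca and stroma marker was at 0 in all of them. Erythroid markers (7 genes) summed to 13.3 to 21.4 FPKM in 2-month and 21.9 to 135.5 in 10-month cumulus cells. They summed to 82.5 to 141 in mural cells and 7.80 to 17.5 in the complexes. Most of the sum in 2-month cumulus cells was Alas2 (13.3 to 16.1 FPKM), as in the complexes (14.3 in BDF1, 7.80 in DBA/2). Alas2 was lower in mural cells, at 2.36 and 1.17 FPKM. The globin genes Hba-a1, Hba-a2, Hbb-b1 and Hbb-b2 were listed at 0 in 2-month cumulus replicate 3 and in the DBA/2 complexes. Oocyte transcripts were uneven within a group, since the median log2(FPKM + 1) of 12 oocyte genes was 4.002, 0 and 6.59 in the 3 cumulus libraries at 2 months. Cumulus replicate 3 at 10 months stood apart from its group, with 1041 FPKM summed over 6 mural markers against 115 and 384 in the other libraries. Fewer cells of a type and less RNA per cell cannot be told apart in such samples.

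Promoter sequences are shown for 3 members whose levels were higher in mural than in cumulus cells (Spock2, Sparc and Bgn) and for 1 whose levels overlapped between the C57BL/6 groups (Sdc1). RefSeq promoters of build GRCm38.p6, from 250 bases before to 50 after the start site that the promoter table uses, were at hand for 6 of the 10 members. Capitals mark the GC box, GGGCGG on either strand, which occurs in 35.7% of the 32851 promoters of this length. The window is read 5′ to 3′ in the direction of transcription.

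Spock2 (chr10:60106007-60106306, plus strand): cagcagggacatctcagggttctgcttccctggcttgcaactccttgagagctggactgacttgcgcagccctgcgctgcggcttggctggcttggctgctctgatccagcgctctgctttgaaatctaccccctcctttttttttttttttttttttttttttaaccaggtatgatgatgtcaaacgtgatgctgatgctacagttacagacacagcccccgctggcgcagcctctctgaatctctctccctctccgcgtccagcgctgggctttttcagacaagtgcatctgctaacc

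Sparc (chr11:55420031-55420330, minus strand): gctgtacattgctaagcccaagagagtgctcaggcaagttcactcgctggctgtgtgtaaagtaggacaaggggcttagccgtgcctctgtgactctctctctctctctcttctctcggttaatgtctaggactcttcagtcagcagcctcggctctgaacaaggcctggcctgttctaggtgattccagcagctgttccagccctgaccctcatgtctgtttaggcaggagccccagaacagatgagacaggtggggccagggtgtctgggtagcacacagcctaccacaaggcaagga

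Bgn (chrX:73483351-73483650, plus strand): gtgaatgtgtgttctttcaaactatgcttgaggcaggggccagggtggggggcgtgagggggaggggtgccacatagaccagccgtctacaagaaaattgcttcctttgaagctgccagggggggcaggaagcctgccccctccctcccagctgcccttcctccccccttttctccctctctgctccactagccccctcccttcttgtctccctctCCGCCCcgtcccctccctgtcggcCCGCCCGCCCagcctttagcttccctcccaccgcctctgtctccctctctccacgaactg

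Sdc1 (chr12:8771146-8771445, plus strand): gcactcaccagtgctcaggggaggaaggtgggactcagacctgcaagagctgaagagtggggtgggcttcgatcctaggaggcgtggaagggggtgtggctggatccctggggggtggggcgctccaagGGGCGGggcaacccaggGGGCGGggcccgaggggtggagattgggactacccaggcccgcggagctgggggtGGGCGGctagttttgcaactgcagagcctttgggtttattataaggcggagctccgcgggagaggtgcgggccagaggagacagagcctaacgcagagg

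The GC box was found 3 times in the Bgn window, with 2 of these overlapping, and 3 times in that of Sdc1. No match stood in the windows of Spock2 and Sparc, 2 related genes. Sdc4 had 4 matches and Hspg2 had 5. The matches were thus in genes that passed the test between mural and cumulus cells described below and in genes that did not. The TATA box TATAAA (13.6% of all promoters, both strands searched) and the AP-1 site TGANTCA (7.81%) were in none of the 6 windows. These are counts of letters in a window and give nothing about a bound factor.

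Mural granulosa and cumulus cells at 2 months were compared to describe how the members differ between the wall of the follicle and the cells at the oocyte. Of 9 members tested, 7 were higher in mural cells and 0 lower at an adjusted p under 0.05 (limma, adjusted over all 12412 genes tested), where 20.9% of all genes passed and 9.69% passed as higher. Their median log2 difference was 1.66, against -0.08 over all genes tested. In 8 of 9 members both mural libraries lay above all 3 cumulus libraries, as did 25.6% of all genes. The 7 were Spock2, Sparc, Dcn, Bgn, Hspg2, Sdc2 and Gpc1. Of these, Dcn and Bgn passed the filter on low values through groups where they are higher, which favours a difference in these counts. The theca and stroma markers moved the same way, with 12 of 14 having a higher mean in mural cells and 7 of 12 tested passing. So did the endothelial markers (8 of 8 higher in mean, 6 of 7 tested passing) and the immune markers (13 of 13 higher in mean, 3 of 10 tested passing). The mural granulosa markers did as well (6 of 6 higher in mean, 5 of 6 tested passing). Of the 7 granulosa markers 4 were higher in mean and 2 passed as higher. The part of these lists in the members' differences was not tested. Mural replicate 2 carried the highest mural level of 9 of the 10 members. Without that library the log2 differences of all tested members but Sdc1 kept their direction. They ran from 0.71 for Sdc4 to 2.85 for Bgn, with -0.11 for Sdc1. Far fewer members and far fewer of all genes passed without it, as given at the end.

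**Figure D1:**
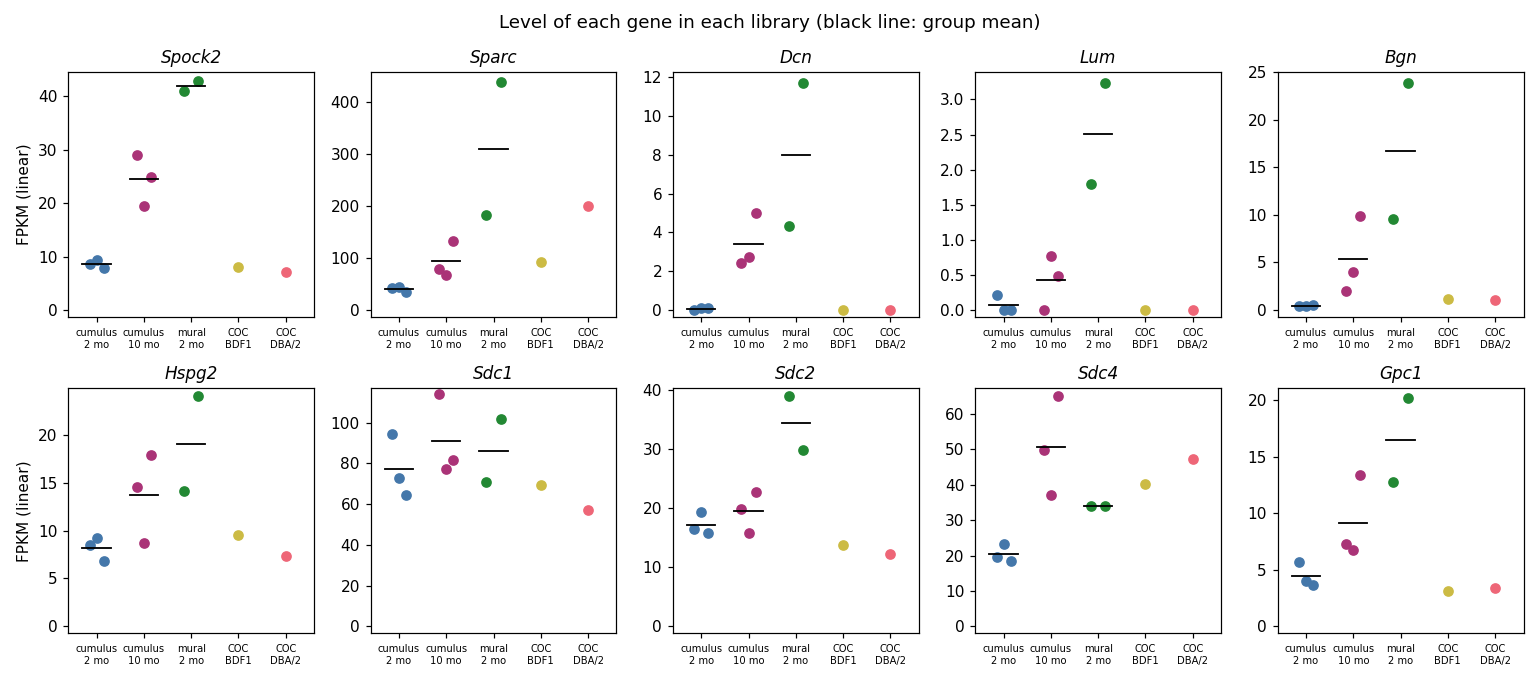
FPKM of each member (linear axis from 0) in each of the 10 libraries, by group. Points are libraries and black lines are means of groups with more than 1 library. The means of Spock2, Sparc, Dcn, Lum, Bgn, Hspg2, Sdc2 and Gpc1 are lowest in 2-month cumulus cells. They are intermediate in 10-month cumulus cells and highest in mural cells. The mean of Sdc4 is highest in 10-month cumulus cells, and Sdc1 overlaps across the C57BL/6 groups.

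Spock2 encodes testican-2, a secreted proteoglycan with a calcium-binding domain shared with SPARC. It stood at 8.63, 9.41 and 7.82 FPKM in replicates 1, 2 and 3 of 2-month cumulus cells, at 29.1, 19.5 and 24.8 in 10-month cumulus cells and at 41.0 and 42.8 in mural cells. The complexes held 8.02 (BDF1) and 7.11 FPKM (DBA/2), next to the 2-month cumulus libraries. No library of these 3 C57BL/6 groups overlapped with one of another group, and the order was mural, 10-month cumulus, 2-month cumulus. The mural mean was 4.86 times the 2-month cumulus mean (log2 difference 2.16 ± 0.18 SE, adjusted p = 0.00195, limma), and this difference passed under all 16 alternatives. Its relatives Spock1 and Spock3 did not exceed 0.182 and 0.639 FPKM in any library, so Spock2 was the testican gene with a level above 1 FPKM here.

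Sparc encodes osteonectin, a matrix glycoprotein that binds collagen and modulates cell adhesion. Cumulus cells at 2 months had 42.8, 44.0 and 33.8 FPKM and mural cells 183 and 437 FPKM. The mural mean was 7.72 times the cumulus mean, although the mural libraries differed from each other by more than the whole range of the cumulus libraries (log2 difference 2.79 ± 0.40 SE, adjusted p = 0.00616, limma). At 10 months cumulus cells had 78.7, 68.3 and 133.6 FPKM, below both mural libraries. Sparc was the most abundant member in mural cells and, per length, exceeded Sdc1 in both of these libraries, whereas in all 3 cumulus libraries at 2 months Sdc1 exceeded Sparc.

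Decorin, lumican and biglycan transcripts were nearly absent from 2-month cumulus cells. Dcn was listed at 0, 0.13 and 0.1 FPKM there, at 2.42, 2.75 and 4.98 in 10-month cumulus cells and at 4.32 and 11.7 in mural cells. Mural libraries lay above all 2-month libraries for Dcn (log2 difference 2.93 ± 0.40 SE, adjusted p = 0.00577, limma), and the groups overlapped between mural and 10-month cumulus cells. Bgn followed with 0.440, 0.457 and 0.496 FPKM at 2 months, 2.03, 4.04 and 9.88 at 10 months and 9.54 and 23.8 in mural cells. Its log2 difference between mural and 2-month cumulus cells was 3.47 ± 0.54 SE (adjusted p = 0.00730, limma) and the largest of the 9 members tested on this scale. Dcn and Bgn passed the filter on low values through their 10-month and mural levels, so their inclusion already favours a difference from 2-month cumulus cells. With a pseudocount of 0.1 in place of 1 the differences rose to 5.44 for Dcn and 4.75 for Bgn and their order turned, since the added 1 compresses low values. Lum stood at 0.211, 0 and 0 FPKM in 2-month cumulus cells, 0, 0.777 and 0.492 at 10 months and 1.79 and 3.23 in mural cells. Lum was therefore outside the tests, and in a fit without the filter on low values it was higher in mural cells (adjusted p = 0.0128, limma). In the RefSeq annotation of GRCm38 Dcn, Lum, Kera and Epyc, which all encode small leucine-rich proteoglycans, follow each other as the protein-coding genes of 1 stretch of chromosome 10. Kera did not exceed 0.106 FPKM in any library and Epyc was listed at 0 in all 10, so the mural signal from this stretch came from Dcn and Lum.

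Decorin, lumican and biglycan are also made by fibroblasts and theca cells, and the levels of Dcn and Bgn ran with several marker lists. No correlation was computed for Lum. Over the 10 libraries Dcn correlated with the median theca and stroma level at a Pearson r of 0.91 and Bgn at 0.97. Bgn and the endothelial level gave 0.97 as well. With the mural granulosa markers r was 0.92 for Dcn and 0.94 for Bgn. These correlations are across libraries that share groups and are descriptive. The 10-month replicate with the highest theca and stroma level, replicate 3, was also the highest of its group for Dcn and Bgn, and mural replicate 2 was highest for both in its group. The genes closest to Dcn in pattern, of 11133 compared, were Acta2 (r = 0.99), Lyz1 (0.99) and Col3a1 (0.98), of which Acta2 and Col3a1 are on the theca and stroma list. Those closest to Bgn were Ltbp4 (0.99), Runx2 (0.98) and Plekhf1 (0.98).

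**Figure D2:**
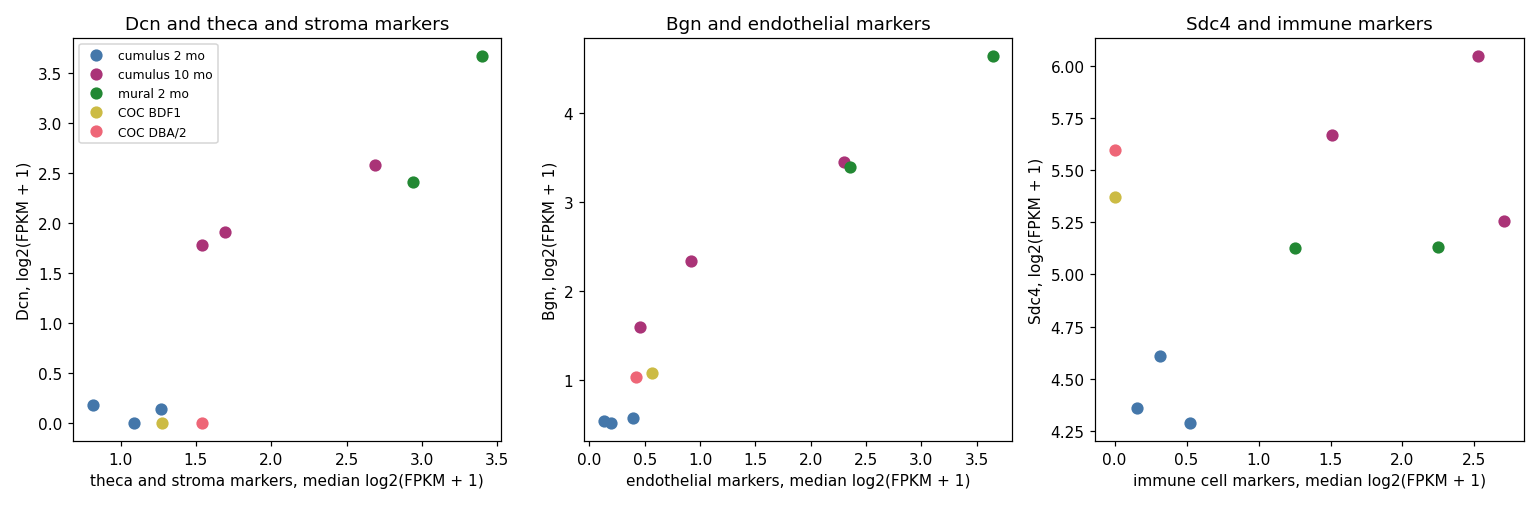
Level of Dcn against theca and stroma markers (left), of Bgn against endothelial markers (middle) and of Sdc4 against immune markers (right), as log2(FPKM + 1) with the median over the marker list on the horizontal axis, 1 point per library, coloured by group. Mural replicate 2 is at the top right for Dcn and Bgn and 2-month cumulus cells are at the low end, whereas both complexes have an Sdc4 level above the mural libraries at an immune marker median of 0.

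Hspg2 encodes perlecan, the large heparan sulfate proteoglycan of basement membranes. Levels were 8.53, 9.25 and 6.84 FPKM in 2-month cumulus cells, 14.6, 8.68 and 18.0 in 10-month cumulus cells and 14.2 and 24.0 in mural cells. Both mural libraries exceeded the 2-month libraries by a mean ratio of 2.33 (log2 difference 1.09 ± 0.32 SE, adjusted p = 0.0486, limma). Among the members this call was nearest to the threshold: it held under 7 of 16 alternatives and was lost, for example, without the intensity trend (adjusted p = 0.0546) and with the replicate block (0.0747). The 10-month libraries overlapped with both other groups. Nearest to Hspg2 in pattern were Wnt4 (r = 0.97), Lamc3 (0.96) and Axl (0.96).

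The 3 syndecans among the members behaved differently from each other. Sdc1, a syndecan typical of epithelia and plasma cells, was the most abundant of them at 94.6, 72.8 and 64.5 FPKM in 2-month cumulus cells, 114, 77.4 and 81.5 at 10 months and 70.6 and 101.6 in mural cells. All 3 groups overlapped, and the mural minus cumulus difference was 0.15 ± 0.25 SE on the log2 scale (adjusted p = 0.706, limma), which does not show that the levels are equal. Sdc2, the syndecan of mesenchymal cells, stood at 16.4, 19.3 and 15.9 FPKM at 2 months, 20.0, 15.9 and 22.8 at 10 months and 39.1 and 30.0 in mural cells. Both mural libraries lay above all 6 cumulus libraries, and against 2-month cumulus cells the ratio of means was 2.01 (log2 difference 0.96 ± 0.19 SE, adjusted p = 0.0147, limma). Of the 7 members that passed, Sdc2 alone was highest in mural replicate 1. Spock2, Sparc and Lum were the other members with both mural libraries above every 10-month library.

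Sdc4, a widely expressed syndecan of focal adhesions, had a different order of groups. It stood at 19.5, 23.4 and 18.6 FPKM in 2-month cumulus cells, 33.9 and 34.1 in mural cells and 49.8, 37.1 and 65.0 in 10-month cumulus cells. The groups did not overlap, and Sdc4 was the 1 member whose mural libraries both lay below all 10-month cumulus libraries. Against 2-month cumulus cells the mural difference was 0.71 ± 0.23 SE on the log2 scale and did not pass (adjusted p = 0.0617, limma), while it passed when these groups were fitted alone (0.0195) and without 10-month replicate 2 (0.0278) or replicate 3 (0.0243). The mural and 10-month cumulus groups were not tested against each other. Ccdc80 had the pattern most like that of Sdc4 (r = 0.93), lower than the closest match of any other member but Sdc1 (Zbtb22, 0.93).

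As shares of the summed FPKM of Sdc1, Sdc2, Sdc3 and Sdc4, which are comparable per length, the syndecans divided differently between the groups. Sdc1 made up 54.7% ± 1.55 (SD, n = 3) in 2-month cumulus cells, 50.02% ± 5.92 (n = 3) at 10 months and 47.8% ± 8.22 (n = 2) in mural cells. Sdc4 made up 14.8% ± 2.88, 27.8% ± 5.89 and 19.1% ± 1.56 in the same groups, with no overlap between the ages (11.6 to 17.0% at 2 months and 23.9 to 34.6% at 10 months). Sdc2 made up 12.4% ± 2.36, 10.8% ± 1.27 and 19.5% ± 5.26, and Sdc3, no member here, 18.1% ± 3.99, 11.4% ± 1.24 and 13.5% ± 1.40. In the complexes Sdc4 held 27.9% (BDF1) and 34.9% (DBA/2), close to the 10-month libraries.

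Gpc1 encodes glypican-1, a heparan sulfate proteoglycan of the cell surface. Cumulus cells at 2 months had 5.72, 4.02 and 3.66 FPKM, 10-month cumulus cells 7.31, 6.73 and 13.4 and mural cells 12.8 and 20.2. The mural mean was 3.69 times the 2-month cumulus mean (log2 difference 1.66 ± 0.32 SE, adjusted p = 0.0133, limma). Gpc1 was nevertheless a small part of its family: Gpc4 held 69.2 to 84.8% of the summed glypican FPKM in all 10 libraries and Gpc1 7.23 to 15.9%. Gpc4 stood at 24.8, 30.2 and 25.2 FPKM in 2-month cumulus cells and 149 and 157 in mural cells (log2 difference 2.48, adjusted p = 0.00218, limma). The summed glypican level was 35.8 ± 2.58 FPKM (SD, n = 3) in 2-month cumulus, 62.9 ± 19.8 (n = 3) in 10-month cumulus and 182 ± 8.67 (n = 2) in mural cells. Reep5 (r = 0.98), Fstl1 (0.98) and Lpar2 (0.98) were closest to Gpc1 in pattern.

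**Figure D3:**
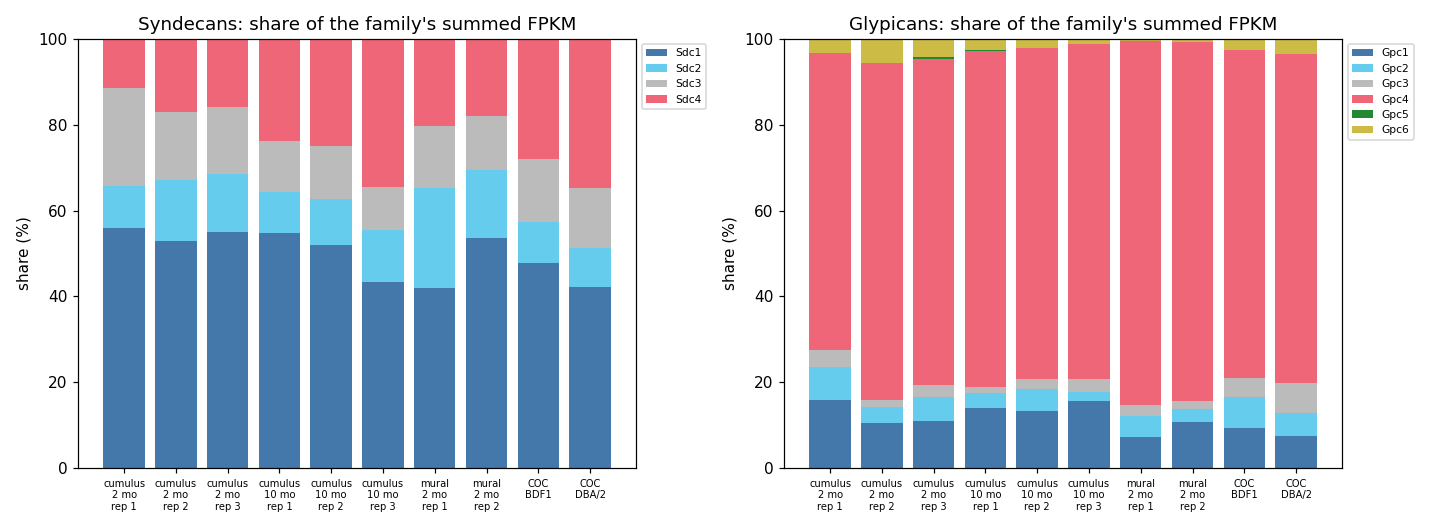
Share (%) of each syndecan (left) and glypican (right) in the summed FPKM of its family, 1 bar per library. Sdc1 is the largest syndecan part in every library, the Sdc4 part is 11.6 to 17.0% in 2-month and 23.9 to 34.6% in 10-month cumulus cells, and Gpc4 fills 69.2 to 84.8% of each glypican bar.

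The other genes of proteoglycan biology were taken from lists of relatives, sugar chain enzymes and ligands. Of 104 such genes 72 were tested, of which 23 (31.9%) passed as higher and 3 as lower in mural cells, with a median log2 difference of 0.44. Over all genes tested 9.69% passed as higher and 20.9% in either direction, and no list was tested against the others. Of 6 SPARC relatives, 4 had higher levels in mural cells, the other 2 being under the filter on low values. The 4 were Smoc1 (2.61 ± 1.14 against 48.9 ± 0.543 FPKM, SD, n = 3 and n = 2, cumulus first here and below), Smoc2 (20.7 ± 0.844 against 70.2 ± 18.4), Sparcl1 (0.280 ± 0.110 against 7.34 ± 4.03) and Fstl1 (0.672 ± 0.0741 against 8.76 ± 4.18). The basement membrane genes Agrn, encoding agrin (11.6 ± 2.64 against 18.8 ± 0.325), and Col18a1, encoding a collagen with heparan sulfate chains (0.893 ± 0.229 against 16.3 ± 7.27), passed too. Vcan, the large hyaluronan-binding proteoglycan versican, stood at 49.2 ± 8.67 against 119 ± 5.07 FPKM. Beside Agrn, Col18a1 and Vcan, the core protein genes that passed as higher were Ogn, Omd, Gpc2, Gpc3 and Gpc4. Sparcl1, Fstl1, Ogn, Col18a1, Gpc3, Ust and Cxcl12 were under 1 FPKM on average in 2-month cumulus cells. Like Dcn and Bgn, they passed the filter through groups where they are higher, which favours a difference. Agrn was the call nearest to the threshold here (adjusted p = 0.0491, limma) and held under 5 of 16 alternatives, against 15 of 16 for Col18a1.

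Of 12 tested heparan sulfate enzymes 1 passed as higher, Ext1, which lengthens the chain (124 ± 8.22 against 223 ± 5.27 FPKM), and of 6 enzymes for the linker to the protein 1 passed, the kinase Fam20b. Of 12 tested chondroitin and dermatan sulfate enzymes 3 were higher (Ust, Dse and Chst12) and 1 lower, Chsy1, which builds the chondroitin chain (27.7 ± 1.72 against 18.0 ± 1.69). Among 6 genes that supply sugar or sulfate, Papss2, which makes the sulfate donor, was higher. Ugdh, which makes the UDP-glucuronate used for heparan, chondroitin and dermatan sulfate, was lower (29.8 ± 1.68 against 18.8 ± 1.49). Both lower calls depended on the scaling: with each library set to the same sum without Mir and Snor genes, neither Ugdh (adjusted p = 0.195, limma) nor Chsy1 (0.0742) passed, and Ugdh did not pass under quantile normalization (0.0951). Of 12 tested genes for chain remodelling or breakdown 4 were higher, among them the lysosomal enzymes Gusb, Sgsh and Naglu. The calls of Chst12 (7 of 16 alternatives), Fam20b (8 of 16), Ugdh (8 of 16), Dse (9 of 15) and Naglu (9 of 16) were often lost. Among 4 tested heparin-binding ligands Cxcl12 was higher and Vegfa lower (119.7 ± 24.6 against 56.99 ± 4.86).

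Cumulus cells at 10 and 2 months were compared to describe the members with age. None of the 9 members tested passed (limma, smallest adjusted p = 0.0869, for Spock2), as none of the 12412 genes did (0%). At an unadjusted threshold of 0.05, 6 of the 9 lay higher at 10 months, against 7.73% of all genes, and 1727 genes reached it in either direction. These 6 members, Spock2, Sparc, Dcn, Bgn, Sdc4 and Gpc1, were also those in which every 10-month library lay above every 2-month library, which held for 8.93% of all genes. Dcn and Bgn count in both numbers although they passed the filter on low values through groups where they are higher, which favours a difference. All 9 log2 differences were above 0, with a median of 1.15 against -0.02 over all genes tested. The mural comparison shares its 2-month cumulus libraries with this one, so the direction in both rests in part on the same values.

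**Figure D4:**
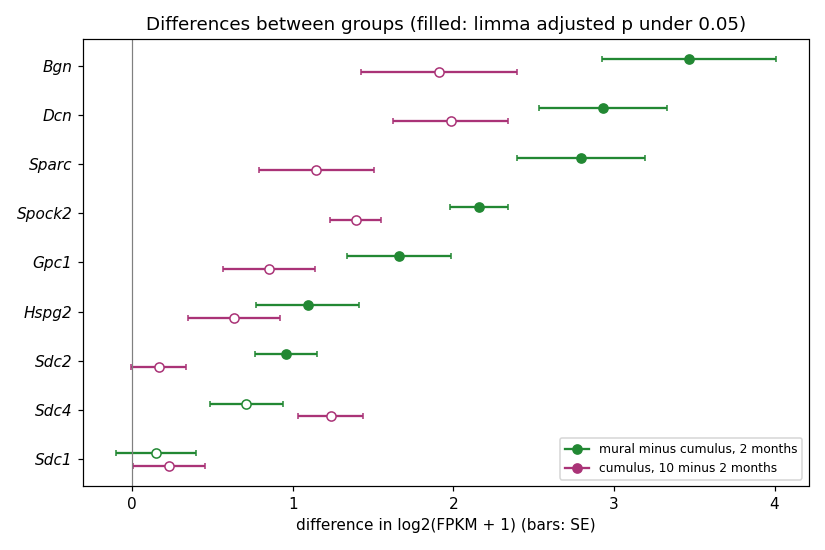
Difference in log2(FPKM + 1) with its SE for the 9 members tested, mural minus cumulus at 2 months (green) and cumulus at 10 minus 2 months (magenta), filled where the limma adjusted p is under 0.05. The mural difference is the larger for all members but Sdc1 and Sdc4, and no age difference is filled.

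By member, the age difference in Spock2 was 1.39 ± 0.16 SE on the log2 scale (means 24.5 ± 4.79 and 8.62 ± 0.798 FPKM, SD, n = 3 each). Sdc4 had a difference of 1.24 ± 0.20 SE (50.6 ± 13.95 against 20.5 ± 2.57 FPKM, adjusted p = 0.152, limma). Dcn and Bgn had differences of 1.98 ± 0.36 and 1.91 ± 0.48 SE, from levels of at most 0.496 FPKM at 2 months. Sparc followed with 1.15 ± 0.36 SE and Gpc1 with 0.85 ± 0.29 SE. For Hspg2 (0.63 ± 0.29 SE), Sdc1 (0.23 ± 0.22 SE) and Sdc2 (0.16 ± 0.17 SE) the age groups overlapped.

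Replicate 3 was the highest 10-month library for 7 of the 10 members, Spock2, Sdc1 and Lum being the exceptions. Without it the differences were 1.37 for Spock2, 1.04 for Sdc4, 1.74 for Dcn, 1.42 for Bgn, 0.86 for Sparc and 0.57 for Gpc1, and the same number of 6 of 9 members had no overlap, beside 13.6% of all genes. Without 10-month replicate 2, Spock2 (adjusted p = 0.00790, limma) and Sdc4 (0.0160) passed, as did 280 of all genes. The theca and stroma markers had a higher mean at 10 months in 12 of 14 and the endothelial markers in 8 of 8 genes. The immune markers did in 13 of 13 and the surface epithelium markers in 9 of 9 genes. The mean was also higher in 5 of 6 mural granulosa markers, but in 1 of 7 granulosa markers. In each of these lists 0 genes passed. The part of these lists in the members' differences was not tested. Over all 10 libraries Sdc4 correlated with the median immune level at r = 0.46 (0.80 over the 8 C57BL/6 libraries). Spock2 correlated with the theca and stroma level at r = 0.84 and with the level of the mural granulosa markers at 0.91, as descriptions.

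Among the pathway genes 0 of 72 tested passed with age (limma), with a median log2 difference of 0.01. Examples with a higher mean at 10 months were Hs3st1, Cd44 and Gpc4. Hs3st1, which adds a rare sulfate to heparan sulfate, stood at 30.6, 32.0 and 21.5 FPKM at 2 months and 81.0, 28.2 and 138 at 10 months (adjusted p = 0.323). Its 10-month libraries overlapped with the younger ones through replicate 2, without which Hs3st1 passed (adjusted p = 0.0262, limma). Cd44, the hyaluronan receptor that can carry chains, stood at 0, 0.296 and 0.152 FPKM at 2 months and 3.19, 0.259 and 18.7 at 10 months (adjusted p = 0.350). Gpc4 stood at 41.3, 38.8 and 66.9 FPKM at 10 months, above all 2-month libraries (adjusted p = 0.225). Other list genes went the other way: in Bcan, Chsy1, Fam20b and Slc26a2 every 10-month library lay below every 2-month library. Bcan stood at 7.32, 3.79 and 3.35 FPKM at 2 months and 2.12, 2.26 and 1.56 at 10 months (adjusted p = 0.307, limma).

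The cumulus-oocyte complexes, with 1 library per strain, allow values but no test. They hold oocytes as well as cumulus cells, from primed mice of other strains and a younger age than the C57BL/6 cumulus cells, and none of these can be told apart. Both complexes were at least 2-fold above the 2-month cumulus mean, on the log2(FPKM + 1) scale, in 1 of 9 members, Sparc, beside 8.26% of all genes. None of the 9 was at least 2-fold lower in both, beside 2.01% of all genes. Sparc stood at 91.8 FPKM in BDF1 and 201 FPKM in DBA/2 complexes, 2.27 and 4.92 times the cumulus level on that scale, and the DBA/2 value lay between the mural libraries. Sdc4 stood at 40.3 and 47.3 FPKM, 1.93 and 2.26 times the cumulus level, above both mural libraries. The remaining 8 members were below both mural libraries in both complexes: Dcn and Lum were listed at 0, Bgn at 1.11 and 1.05 FPKM, Gpc1 at 3.10 and 3.40, Sdc2 at 13.9 and 12.3, Hspg2 at 9.60 and 7.34 and Sdc1 at 69.1 and 57.1. In the complexes the median log2(FPKM + 1) of the theca and stroma markers was 1.28 (BDF1) and 1.54 (DBA/2), against 0.81 to 1.27 in 2-month cumulus cells, while their summed FPKM was lower than there, and their part in these levels was not tested.

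Across the 10 libraries the members moved together to different degrees. Among 36 pairs of the 9 members tested, r on log2(FPKM + 1) was highest for Dcn and Bgn (0.96), Spock2 and Dcn (0.96) and Dcn and Gpc1 (0.95), and lowest for Sdc2 and Sdc4 (0.08). These values are descriptive, over libraries that share groups. Sparc, raised in the complexes too, had r = 0.60 with its relative Spock2. The genes with the pattern most like Spock2 were Pros1, encoding the anticoagulant protein S (0.98), Cpe (0.97) and App (0.96). For Sparc they were Serinc3 (0.97), Lgmn (0.97) and Kif5a (0.96), for Sdc2 Heph (0.97), Adamts7 (0.97) and Lima1 (0.96), and for Sdc1 Zbtb22, H2afj (0.91) and Cttn (0.89).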

How the data were processed

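The authors deposited 1 table of FPKM values for the 10 libraries. The submitters' processing notes name build mm9, Cufflinks 2.1.0 and TopHat2 2.1.0. The sources used here give no annotation, strand setting or read depth, so the depth is unknown and no counting interval is given. Without strand, reads from an overlapping antisense gene cannot be told apart from a member's own. A repeated header line (1) was dropped. Values were set to log2(FPKM + 1), which understates changes of low genes. Genes with a mean of at least 1 FPKM over the 8 C57BL/6 libraries (12412) entered 1 limma model (version 3.58.1, R 4.3.3) with a mean per group and an intensity trend, which leaves 5 residual degrees of freedom. The code was tested on simulated data. P-values are two-sided, Benjamini-Hochberg adjusted over all genes tested, with a threshold of 0.05. For the complexes, genes at least 2-fold from the 2-month cumulus mean in both libraries were counted.

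Members, lists and tests were chosen with earlier results of these data known. Genes to be named were all members, up to 4 tested genes of each list with the smallest unadjusted p in either comparison (all of a list of 6 or fewer) and the 3 genes closest to each member by Pearson's r, predicted, Mir and Snor genes left out. Groups follow the sample titles. Alternatives changed the pseudocount (0.1), filter (none, or 5 FPKM), scaling, groups fitted, trend, replicate block and single libraries. The values of 1 list gene are not reported here.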

Additional observations from a re-analysis of the deposited data

How the results depend on the processing

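For mural against 2-month cumulus cells, 6 to 9 members passed under the 8 alternatives other than leaving out a library, beside 2140 to 3361 of all genes. The set tested was not always the same. Lum was tested and passed without the filter and with only these groups fitted. The latter gave the count of 9, beside 3332 of 12310 genes tested. Dcn was not tested with a mean of at least 5 FPKM. Sdc1 passed under 0 of 16 alternatives. Leaving out 1 library gave 1 to 8 members (1 without mural replicate 2, 5 without mural replicate 1) and 96 to 3251 of all genes, with 96 and 758 without mural replicate 2 and 1, and 1717 and 1208 without 2-month cumulus replicate 1 and 2. Where a single mural library is left, it is assumed to vary like the other groups. The number of pathway genes passing as higher was 14 with a mean of at least 5 FPKM, where fewer genes were tested, and 2 to 26 when 1 library was left out (2, Gpc4 and Smoc2, without mural replicate 2, 8 without mural replicate 1 and 15 without 2-month cumulus replicate 2). This count was run under the alternatives after seeing the data. The Sdc1 difference ran from -0.11 to 0.41 over single libraries left out, below 0 without mural replicate 2. Rescaling each library to the same sum without Mir and Snor genes moved the median of all genes from -0.08 to 0.11 and the share of higher calls from 46.3 to 64.0%, and 7 members still passed. With age, leaving out 1 library gave 0 to 280 of all genes, 0 to 2 members and 0 to 2 pathway genes, the highest each without 10-month replicate 2. The cause was not tested. With the replicate block 6 members and 3361 of all genes passed for mural cells and 0 with age. Same-numbered libraries did not all deviate together, with r = 0.01, 0.12 and 0.15 between the ages. For replicates 1 and 2 it was 0.03 and 0.21 between 2-month cumulus and mural cells, and 0.05 and -0.05 between 10-month cumulus and mural cells. The numbers were therefore not taken as pairs, which does not show that pairing is absent. Low genes such as Dcn, Lum and Bgn are limited by an unknown depth.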
